A study of Homo sapiens with 12 samples.

Results

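CLK1, CLK2, CLK3 and CLK4 are the 4 CDC2-like kinases. They were matched by Ensembl identifier among the 58051 genes of the deposited count tables, and all 4 passed the filter on low counts that left 27915 genes for testing. Their 64 annotated transcripts (15 of CLK1, 7 of CLK2, 27 of CLK3 and 15 of CLK4) were all present in the deposited transcript estimates. The cells were HCT116, a line from a human colon carcinoma, transfected with siPFDN2 or siPFDN5, small interfering RNAs directed against 2 subunits of the cochaperone prefoldin, or with siControl. From 24 h after the siRNA the cells were kept without serum for 48 h, and they were taken either then or 90 min after serum was given back, which makes 6 groups of 2 libraries. All groups, siControl included, had thus been transfected and starved, and 1 siRNA was used per target. The labels do not say whether replicates came from separate cultures, so p-values measure the spread between these libraries only.

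CLK proteins are nuclear kinases that phosphorylate serine- and arginine-rich (SR) proteins, the splicing factors that help to choose exons, and so move them between nuclear speckles and the sites of splicing. The CLK genes are themselves controlled through splicing. Their pre-mRNAs can keep the introns on either side of exon 4, and such transcripts are held back in the nucleus as a pool that can be completed later (detained introns). They can also skip exon 4, which shifts the reading frame ahead of the kinase domain, so that the message is open to nonsense-mediated decay (NMD).

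Exon 4 of each gene is shown because the splicing choices described here turn on it. The sequences were read from GENCODE release 29 transcripts on GRCh38, 5′ to 3′ on the coding strand. Lower case is exon 4, and the capitals are the last 2 bases of intron 3 and the first 2 bases of intron 4.
CLK1 (chr2:200860125-200860215, minus strand): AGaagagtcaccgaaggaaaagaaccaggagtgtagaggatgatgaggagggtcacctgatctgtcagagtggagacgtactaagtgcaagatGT
CLK4 (chr5:178617344-178617434, minus strand): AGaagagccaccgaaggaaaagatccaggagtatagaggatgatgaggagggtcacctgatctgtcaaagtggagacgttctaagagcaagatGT
CLK2 (chr1:155268708-155268792, minus strand): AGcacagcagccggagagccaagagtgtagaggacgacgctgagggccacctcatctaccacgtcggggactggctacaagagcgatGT
CLK3 (chr15:74622120-74622216, plus strand): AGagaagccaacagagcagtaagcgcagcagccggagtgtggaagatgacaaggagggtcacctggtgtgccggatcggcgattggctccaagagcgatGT
The exons are 91, 91, 85 and 97 bases long in the order shown, and each length leaves a remainder of 1 after division by 3. CLK1 and CLK4 were 93.4% identical over this exon, whereas the other 5 pairs lay between 64.9% (CLK2 and CLK3) and 70.3% (CLK1 and CLK2). All 4 exons end in the same 3 bases, and an annotated transcript skips the exon in every one of the genes. The 5′ ends of the flanking introns are shown next, because a transcript that keeps an intron runs through them. Each line gives 3 exon bases, then the intron, whose first 2 bases are in capitals.
CLK1 intron 3: gggGTatga
CLK4 intron 3: tcgGTatga
CLK3 intron 3: tcgGTgagt
CLK1 intron 4: gatGTatag
CLK4 intron 4: gatGTatag
CLK2 intron 4: gatGTacaa
CLK3 intron 4: gatGTacag
CLK1 and CLK4 share intron 4's site to the letter.

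In CLK1, intron 3 is 1022 bases long and intron 4 is 378. Both are held whole by the retained-intron transcript CLK1-210, and intron 4 also by CLK1-207 together with intron 7. In CLK4, introns of 1121 and 395 bases are both held by CLK4-203, intron 3 also by CLK4-206, and intron 4 also by CLK4-202 together with introns 11 and 12. In CLK3, intron 3 (1894 bases) and intron 4 (277 bases) are both held by CLK3-226, and singly by CLK3-203 and CLK3-224. CLK2 has no transcript of the retained-intron biotype, but CLK2-207, a processed transcript, holds its intron 4 (348 bases) with introns 10 and 11.

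These annotations decide what the count tables can show. Any intron base that lies in an exon of some transcript is counted as exon, so gene-body counts minus exon counts leave it out. Introns 3 and 4 were counted as exon over 100% of their length in all 4 genes. Of all intron bases of the principal transcript, 33.0% were counted as exon in CLK1, 16.4% in CLK2, 28.97% in CLK3 and 24.2% in CLK4. The intron share from the count tables therefore describes the other introns, and introns 3 and 4 can be read only from the transcript estimates. In CLK2 this reaches intron 4 only, because no annotated transcript holds its intron 3 whole.

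**Figure D1:**
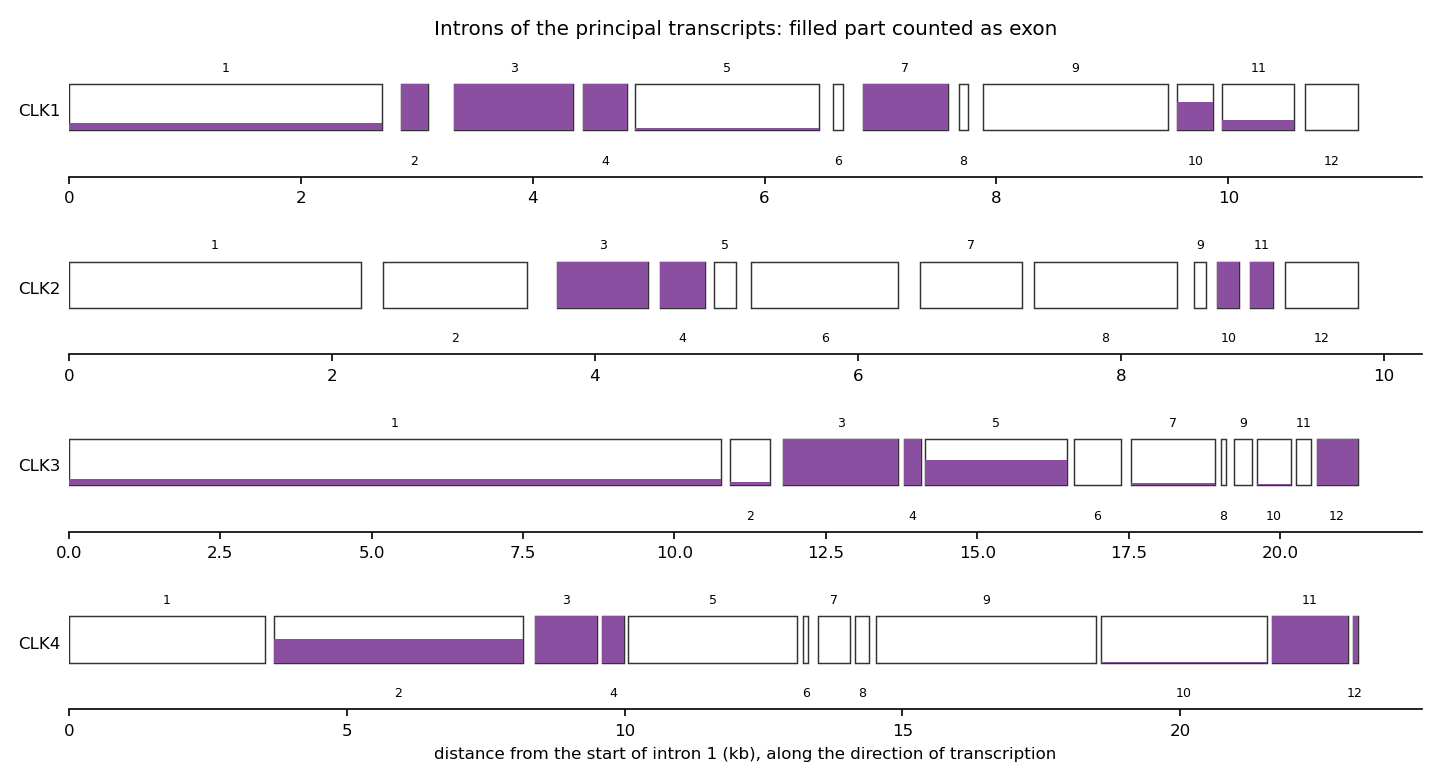
Introns 1 to 12 of the principal transcript of each CLK gene, drawn as boxes by distance from the start of intron 1 in kilobases, with exons as the gaps between boxes. The filled height of a box is the share of the intron counted as exon, which is complete for introns 3 and 4 in all 4 genes.

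Gene-body counts came to between 59784425 and 136504590 per library. In siPFDN2 the PFDN2 level was 7.55 and 8.49 CPM (counts scaled by library size with TMM factors, so that libraries can be compared) before serum against 11.5 and 11.2 in siControl, and 8.73 and 9.47 against 19.5 and 16.3 after it, with adjusted p = 0.442 and 0.772 (edgeR), lower in each library but not past the test. In siPFDN5 the PFDN5 level was 40.97 and 44.2 CPM before serum against 76.8 and 68.9 in siControl (-0.77, edgeR adjusted p = 0.104). After serum it was 67.5 and 68.6 against 67.9 and 74.03, so that the target was not lower beyond the spread in the libraries labelled siPFDN5 after serum. PFDN2 was higher in each siPFDN5 library than in siControl at the same time, without passing the test. It was at 21.8 and 21.1 CPM before serum (log2 0.92, edgeR adjusted p = 0.104). In the libraries labelled after serum it was at 23.1 and 28.7 CPM (log2 0.53, edgeR adjusted p = 0.108). Replicate 2 of siPFDN2 before serum stood apart, with a rank correlation of 0.688 across genes between GC content and deviation from the mean of the libraries, against -0.280 to 0.133 in the other 11. Of 8 colon epithelium markers 7 had a mean over 1 CPM and LGALS4 did not, and their sum ran from 1856 to 2890 CPM. Markers of fibroblasts, leukocytes and endothelium summed to at most 16.04, 4.38 and 0.835 CPM. COL1A1 and CD68 were the only ones of these with a mean over 1 CPM.

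As CPM per kilobase of annotated exon, CLK2 and CLK1 had the highest values, with means over the 12 libraries of 3.50 ± 0.972 and 3.21 ± 0.902 (SD, n = 12). CLK3 followed at 1.30 ± 0.245 and CLK4 at 0.649 ± 0.118. CLK2 exceeded CLK1 in 6 of 12 libraries, so these neighbours did not differ beyond their spread. CLK1 exceeded CLK3 in 11 of 12 libraries, the exception being replicate 2 of siPFDN2 before serum, and CLK3 exceeded CLK4 in all 12. The exon length is that of all annotated exons together, 5170 bases in CLK1, 3670 in CLK2, 20443 in CLK3 and 7924 in CLK4. It includes the introns counted as exon, which lowers the level of a gene with long annotated retained introns. The principal transcripts are 1888, 1934, 1846 and 2568 bases long in the same order. The order of these levels therefore depends on the length used and does not rank the genes by number of transcripts.

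CLK2 was the kinase whose level fell with serum. Its gene-body level in siControl was 19.5 and 14.4 CPM before serum and 13.3 and 13.6 after it. In siPFDN2 it was 18.3 and 23.1 before and 12.5 and 10.7 after, and in siPFDN5 15.5 and 15.6 before and 10.5 and 12.1 in the libraries labelled after serum. Every one of the 6 libraries after serum lay below every one of the 6 before it, which held for 2.97% of the tested genes. The serum response averaged over the 3 siRNAs was -0.54 ± 0.11 (log2 fold change and its SE throughout), with adjusted p = 0.00754 by the quasi-likelihood test of edgeR, adjusted after Benjamini-Hochberg over all genes. In that comparison 14.9% of the tested genes were called at an adjusted p under 0.05, 7.31% were called lower, so that the count alone is no result about the family. Within a single siRNA the change was -0.33 ± 0.19 in siControl (adjusted p = 0.542), -0.83 ± 0.19 in siPFDN2 (adjusted p = 0.0381) and -0.46 ± 0.19 in siPFDN5 (adjusted p = 0.124). In these 3 comparisons 2.87%, 3.26% and 12.2% of genes were called, 2.47%, 2.06% and 5.72% higher and 0.394%, 1.2% and 6.48% lower. The siPFDN2 call was lost in 8 of the 12 fits that each left out 1 library (highest adjusted p = 0.322) and with the replicate number as a block (adjusted p = 0.05297), and the averaged call held in all 12. CLK2 shares 909 bases (5.82% of its body) with HCN3 on the opposite strand, fragments were counted for each gene they overlap, and HCN3 also fell (log2 -0.97, adjusted p = 0.00230). The part of HCN3 in the result was not tested. In bulk RNA, fewer cells with CLK2 transcripts and fewer transcripts per cell cannot be told apart.

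CLK3, which has the longest gene body of the 4, did not pass the test. Its level was 35.97 and 35.01 CPM before and 34.4 and 35.9 after serum in siControl, 39.3 and 65.6 and then 31.7 and 30.8 in siPFDN2, and 38.3 and 37.7 and then 35.6 and 40.6 in siPFDN5. All libraries lay between 30.8 and 40.6 CPM except replicate 2 of siPFDN2 before serum. The averaged serum response was -0.25 ± 0.12 (edgeR adjusted p = 0.161). Without replicate 2 of siPFDN2 before serum the value was -0.11, and without replicate 1 of that group, when replicate 2 stands alone, it was -0.35. Of the CLK3 body 31.7% overlaps EDC3 on the opposite strand, whose fragments are counted for CLK3 as well.

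CLK1 and CLK4, the pair most alike in sequence, did not pass the test. CLK1 was at 26.5 and 14.5 CPM before and 14.2 and 16.6 after serum in siControl, 16.6 and 7.99 and then 21.7 and 19.2 in siPFDN2, and 21.6 and 18.3 and then 20.99 and 17.2 in siPFDN5. Replicates lay far apart in siControl and siPFDN2 before serum, and the groups before and after serum overlapped except in siPFDN2, where both libraries after serum were higher. CLK4 was at 8.798 and 7.05 before and 7.49 and 6.65 after serum in siControl, 7.804 and 4.69 and then 7.82 and 5.68 in siPFDN2, and 8.17 and 7.92 and then 6.42 and 6.58 in siPFDN5. The averaged serum responses were 0.088 ± 0.19 for CLK1 and -0.12 ± 0.14 for CLK4 (edgeR adjusted p = 0.776 and 0.574). The CLK1 value turned negative with library size as the only scaling (-0.057), with the GC trend removed (-0.017), and without replicate 2 of siPFDN2 (-0.056) or of siControl before serum.

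**Figure D2:**
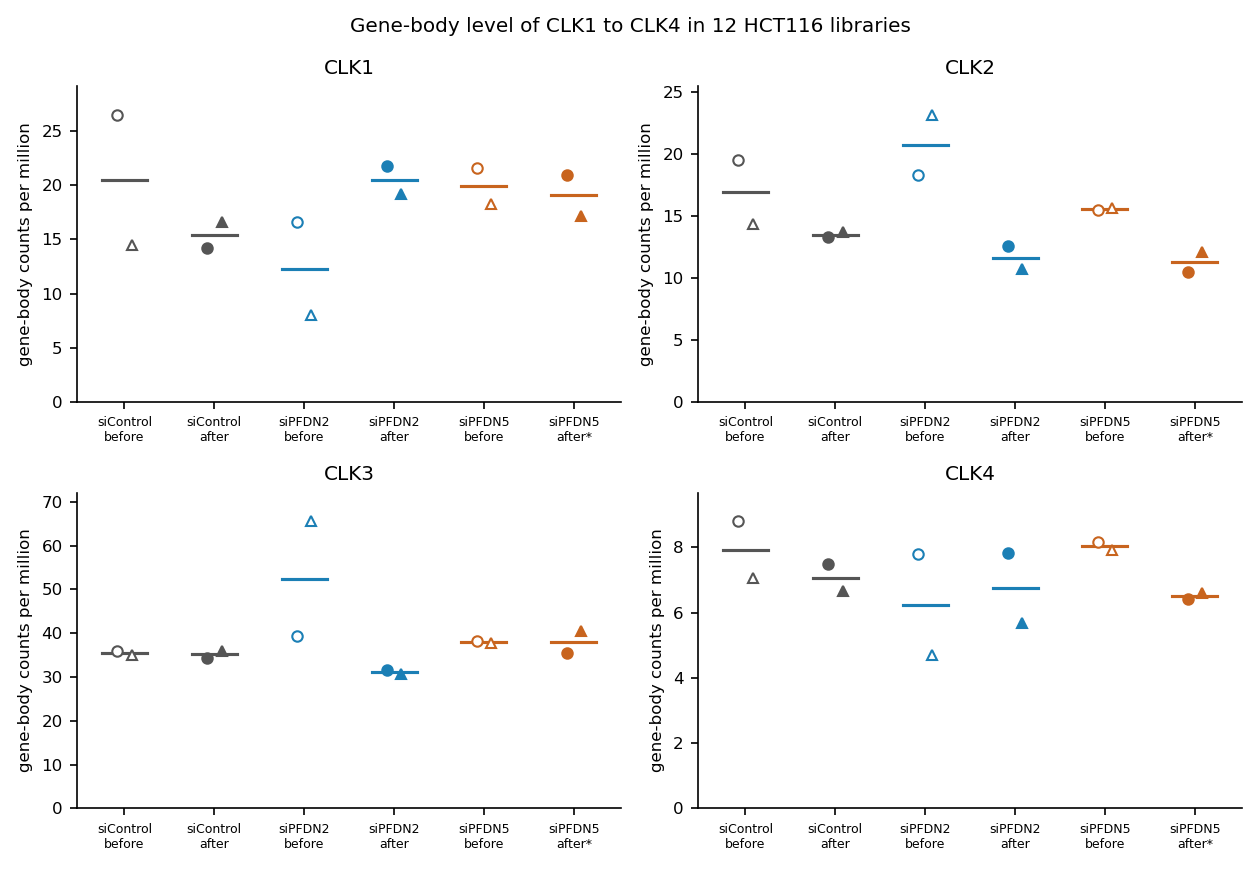
Gene-body CPM (TMM-scaled) of CLK1 to CLK4 in each library (circle, replicate 1; triangle, replicate 2; open, before serum; filled, after serum; bar, mean; *, libraries labelled siPFDN5 after serum, in which PFDN5 was not lowered). CLK2 lies lower after serum with each siRNA, and replicate 2 of siPFDN2 before serum is apart from its partner in all 4 genes. The siControl replicates before serum are also apart in CLK1 (26.5 and 14.5 CPM) and CLK2 (19.5 and 14.4 CPM).

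Both siRNAs against prefoldin subunits were also compared with siControl at the same time. PFDN5 itself was not lower beyond the spread in the libraries labelled siPFDN5 after serum (-0.061 ± 0.14, edgeR adjusted p = 0.827), so the 4 tests of those libraries cannot be read as tests of its depletion. None of the 16 tests of a CLK level in siPFDN2 or siPFDN5 against siControl, before or after serum, passed (edgeR). Unadjusted p was under 0.05 in 2 of them, DESeq2 called 0, and across all genes these comparisons called 0% and 0% with siPFDN2 and 0.00716% and 0.00358% with siPFDN5. The 2 were CLK1 (-0.74 ± 0.33, adjusted p = 0.442) and CLK3 (0.56 ± 0.20, adjusted p = 0.442) in siPFDN2 before serum, the group with the deviating library. With no filter on low counts edgeR called 1 of the 16, CLK1 in siPFDN2 before serum (-0.71, adjusted p = 0.0375). Without that library no CLK gene had an unadjusted p under 0.05. With only that library in the group, CLK1 and CLK4 were lower (-1.37 and -0.77) and CLK2 and CLK3 higher (0.44 and 0.87). The difference of the serum response from siControl did not pass in any of 8 tests either (edgeR, 0% and 0% of genes called), but with no filter on low counts 1 of the 8 did, that of CLK1 in siPFDN2 (1.14, adjusted p = 0.0168). Unadjusted p was under 0.05 in 2 with the filter and DESeq2 called 0. Both were again in siPFDN2, for CLK1 (1.15 ± 0.47, adjusted p = 0.582) and CLK3 (-0.73 ± 0.29, adjusted p = 0.582).

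The intron share of CLK2, which is the intron counts as a percentage of its gene-body counts, rose with serum while its level fell. It was 12.9% and 12.4% in siControl before serum and 17.6% and 17.3% after it. In siPFDN2 it was 11.3% and 11.1% before and 16.5% and 15.6% after, and in siPFDN5 14.1% and 11.5% before and 17.5% and 15.2% in the libraries labelled after serum. All 6 libraries after serum lay above all 6 before it, as for 0.815% of the genes tested for their intron share. The Wilson 95% interval of a single library was up to 5.45 percentage points wide, and it covers counting error only. The averaged change of the ratio of intron to exon counts was 0.52 ± 0.13 (log2, edgeR's intron-by-group interaction, adjusted p = 0.0132). Among 17303 genes 2.47% were called higher and 22.2% lower, and the median change was -0.28. Leaving out replicate 2 of siPFDN5 before serum or the first of the libraries labelled siPFDN5 after serum took the adjusted p of CLK2 to 0.0513 and 0.0542, with changes of 0.47 and 0.48. CLK2 intron counts themselves ran from 1.67 to 2.56 CPM and the groups before and after serum overlapped, whereas its exon counts fell by 0.65 on the log2 scale (edgeR adjusted p = 0.00388).

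The other 3 kinases did not share this pattern. CLK1 intron counts were 6.01% and 7.94% of the gene-body counts in siControl before serum and 11.9% and 8.32% after it, 8.397% and 19.1% and then 8.15% and 6.41% in siPFDN2, and 7.61% and 7.29% and then 4.48% and 5.24% in siPFDN5. The share lay higher after serum in siControl and lower after serum with siPFDN2 and in the libraries labelled siPFDN5, in each case without overlap. For a single siRNA the share of all genes without overlap was not counted. CLK4 was at 23.7% and 25.5% and then 34.6% and 27.9% in siControl, 27.8% and 33.1% and then 31.4% and 29.9% in siPFDN2, and 27.7% and 25.2% and then 23.9% and 21.3% in siPFDN5. CLK3 ranged from 24.7% to 38.8%, with its highest value in replicate 2 of siPFDN2 before serum, and fragments of EDC3 in the overlap are counted in it. Averaged over the siRNAs the changes were -0.34 ± 0.23 in CLK1, -0.0033 ± 0.13 in CLK3 and 0.060 ± 0.14 in CLK4, with edgeR adjusted p = 0.303, 0.989 and 0.782.

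Between the siRNAs the only CLK intron share that passed was that of CLK1 in the libraries labelled siPFDN5 against siControl, both after serum. It was -1.11 ± 0.40 (edgeR adjusted p = 0.0453), in a comparison that called 38.4% of genes lower, with a median of -0.75 over all genes. CLK4 gave -0.63 ± 0.24 (adjusted p = 0.0557), CLK3 -0.47 ± 0.23 (0.125) and CLK2 -0.12 ± 0.22 (0.705). With introns and exons scaled separately the CLK1 change was -0.36 (adjusted p = 0.446), and its adjusted p was 0.05996 with the replicate number as a block. It lost the call in 9 of the 12 fits that each left out 1 library, with -0.83 and the highest adjusted p (0.21) without replicate 1 of siControl after serum. The intron share over all genes of a library, 20.6% and 16.2% in siControl and 17.2% and 14.8% in the libraries labelled siPFDN5 after serum, moved with it, and its part in the result was not tested. The difference of the serum response did not pass for any CLK gene (edgeR, 0% and 33.4% of genes called). Unadjusted p was under 0.05 in 3 of these 8 tests. Without replicate 2 of siPFDN2 before serum, which leaves 1 library in that group, CLK1 was called lower in the siPFDN5 difference of the serum response. CLK1 and CLK4 were then called lower in the libraries labelled siPFDN5 against siControl, both after serum. With all libraries these comparisons called 33.1% and 38.4% of genes lower, so such calls are no result about the CLK genes.

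**Figure D3:**
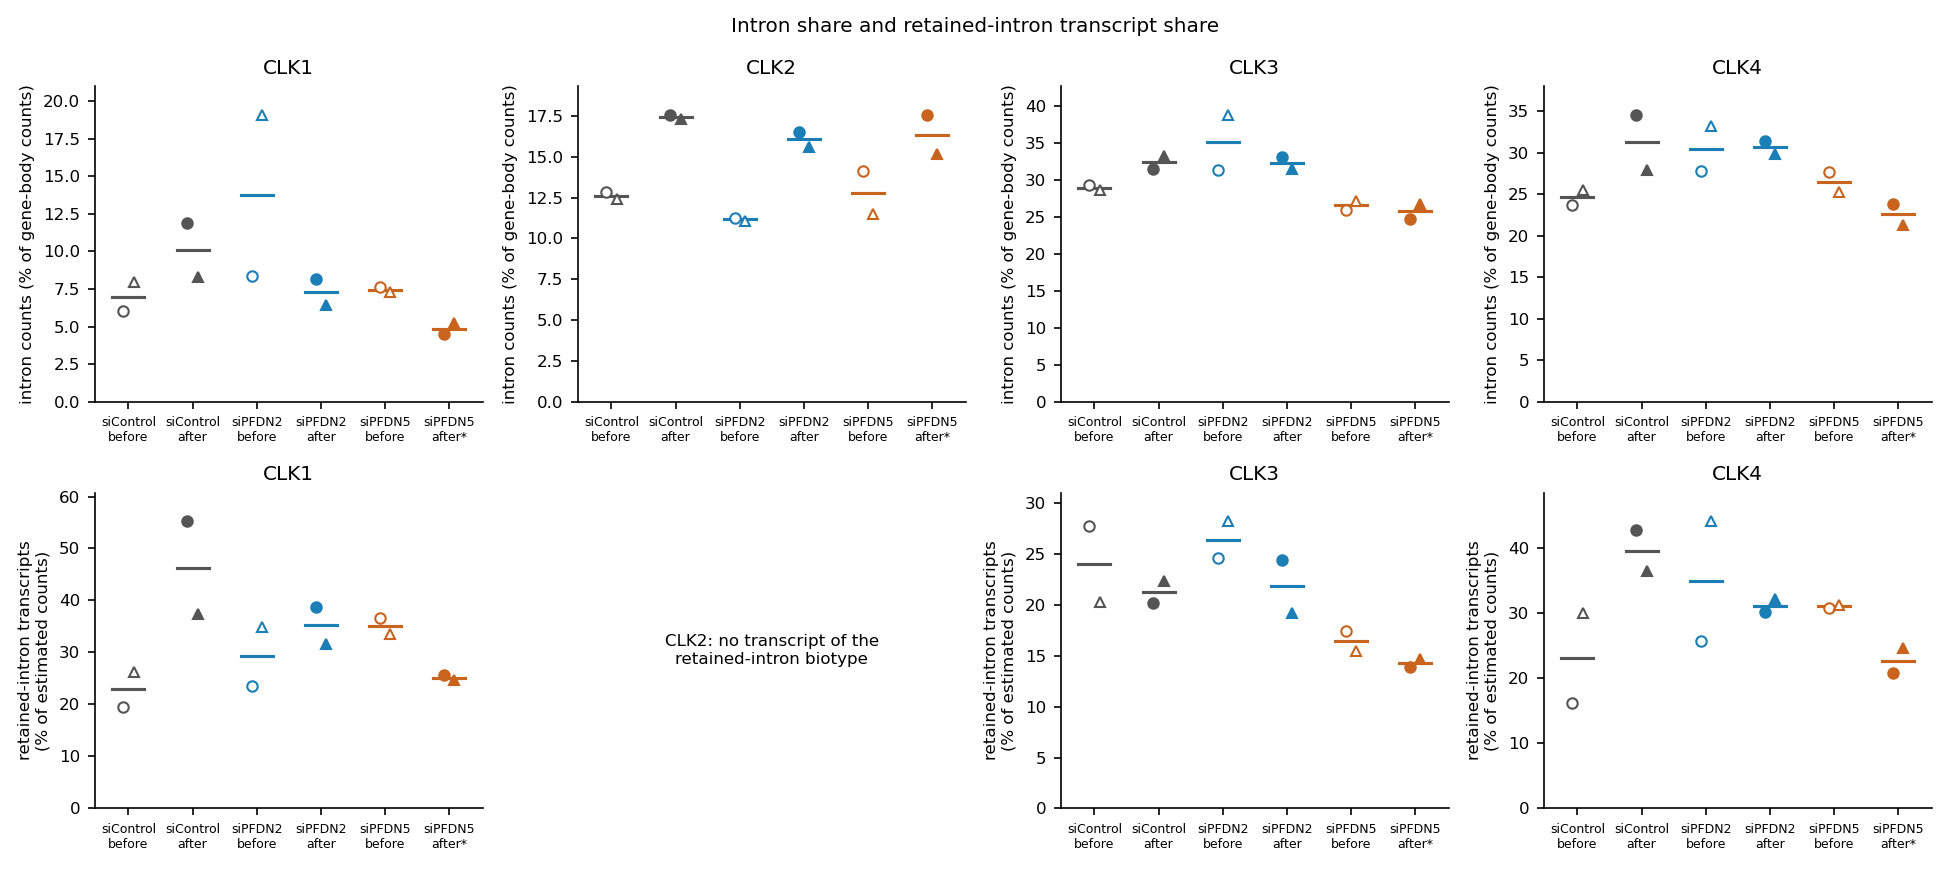
Intron share of the gene-body counts (upper row) and share of estimated counts in retained-intron transcripts (lower row) of the CLK genes in each library (circle, replicate 1; triangle, replicate 2; open, before serum; filled, after serum; bar, mean; *, libraries labelled siPFDN5 after serum). CLK2 intron share is higher after serum with each siRNA, whereas the CLK1 and CLK4 shares of retained-intron transcripts are higher after serum in siControl and lower in the libraries labelled siPFDN5 after serum.

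The transcript estimates cover introns 3 and 4, but the retained-intron biotype also has transcripts that keep neither of them whole. In CLK3 these include CLK3-206, CLK3-222 and CLK3-208, at 3.44%, 3.37% and 1.45% of estimated counts on average, in a class that held 20.7%. In CLK1 the retained-intron transcripts held 19.6% and 26.2% of the estimated counts in siControl before serum and 55.2% and 37.3% after it. In siPFDN2 they held 23.6% and 34.9% before and 38.8% and 31.7% after, and in siPFDN5 36.7% and 33.4% before and 25.6% and 24.7% in the libraries labelled after serum. The share was thus higher after serum in siControl, overlapping in siPFDN2, and lower in the libraries labelled siPFDN5 after serum than in siPFDN5 before it. CLK4 showed the same order, with 16.2% and 30.03% and then 42.7% and 36.5% in siControl, 25.7% and 44.1% and then 30.1% and 32.1% in siPFDN2, and 30.8% and 31.3% and then 20.8% and 24.6% in siPFDN5. CLK3 was at 27.7% and 20.3% and then 20.2% and 22.4% in siControl, 24.6% and 28.3% and then 24.5% and 19.2% in siPFDN2, and 17.4% and 15.4% and then 13.9% and 14.6% in siPFDN5. Both siPFDN5 libraries of CLK3 lay below both siControl libraries at each time. The share of all genes without overlap between such groups was not counted.

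The change of these shares with serum within a single siRNA was not tested. No comparison that was tested passed across genes. Of 21 edgeR tests of a CLK retained-intron share 0 were called, and 5 had an unadjusted p under 0.05. The averaged serum response was 0.42 ± 0.24 in CLK1, -0.27 ± 0.17 in CLK3 and 0.11 ± 0.28 in CLK4 (adjusted p = 0.287, 0.336 and 0.824), with 5.54% of 6660 genes called and a median of -0.29. In the libraries labelled siPFDN5 against siControl after serum the changes were -1.35 ± 0.42, -0.70 ± 0.30 and -1.16 ± 0.48 in CLK1, CLK3 and CLK4. Their unadjusted p was 0.00947, 0.0421 and 0.0386, and their edgeR adjusted p 0.122, 0.188 and 0.182 (0% of genes called, median -0.59). The difference of the serum response between siPFDN5 and siControl was -2.23 ± 0.59 in CLK1 and -1.79 ± 0.69 in CLK4, with unadjusted p = 0.00381 and 0.0263 and edgeR adjusted p = 0.237 and 0.252. In CLK3 it was -0.030 ± 0.42. Across all genes the median of that difference was -0.61 and 0.03% were called. Without replicate 1 of siControl after serum, the highest CLK1 library, the CLK1 difference was -1.70 and without replicate 2 it was -2.76.

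**Figure D4:**
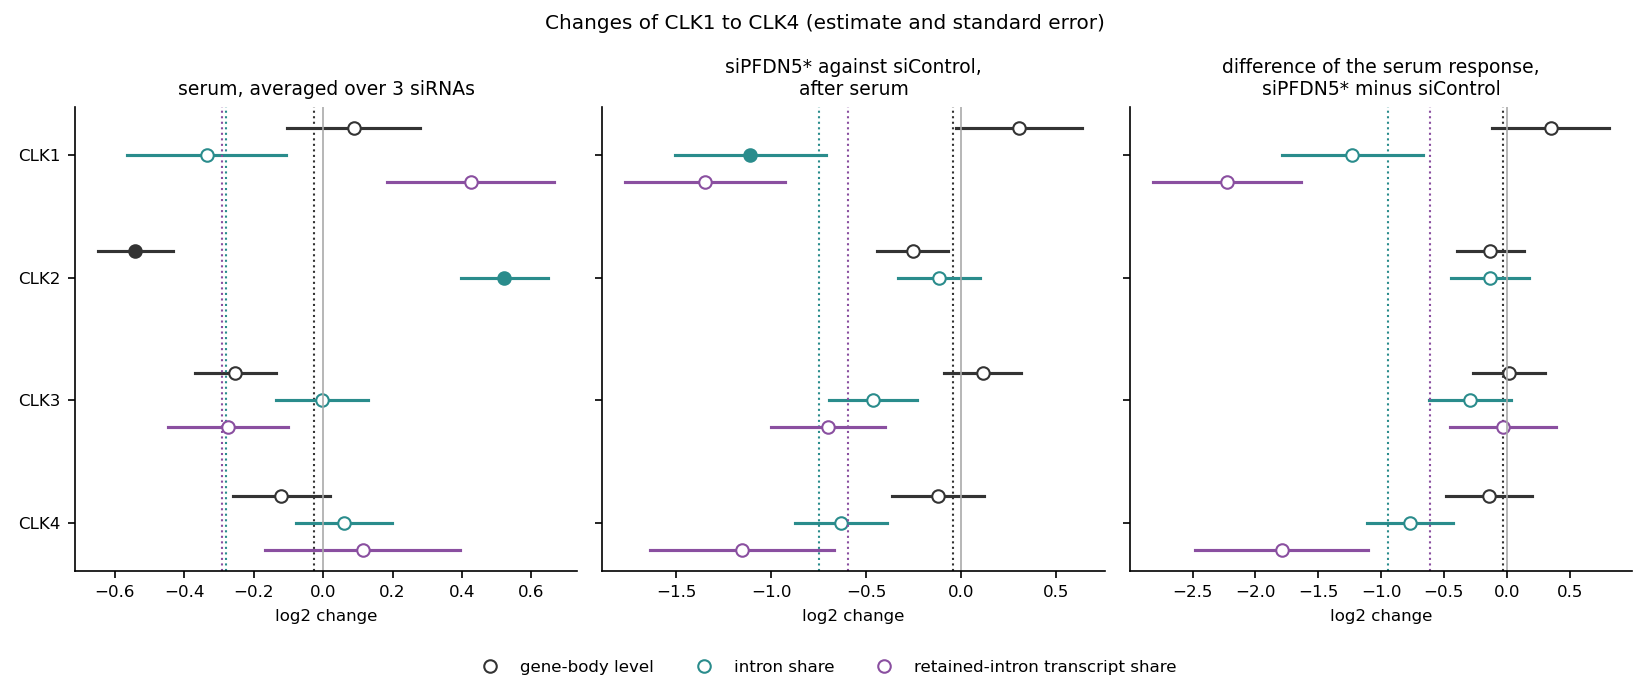
Estimated log2 changes of CLK1 to CLK4 with their standard errors in 3 comparisons, for the gene-body level, the ratio of intron to exon counts and the ratio of retained-intron to other transcripts (dotted line, median of all genes tested in the same colour; filled, adjusted p under 0.05; *, libraries labelled siPFDN5 after serum). CLK2 is the only kinase with filled points in the averaged serum response, and CLK1 has the only filled point in the other panels.

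Sorting transcripts by what they do at exon 4 sets the forms side by side. The estimates carry an error in assigning fragments to transcripts, and the deposited values do not give its size. In siPFDN2 before serum, CLK1-201 was at 38.8% in replicate 1 and 9.71% in replicate 2. CLK1-205, which also includes exon 4, was at 4.33% and 19.2%. Transcripts were sorted into those that include exon 4 between spliced neighbours, those that skip it, and those that keep intron 3 or 4 whole. Shares are per transcript length and add up to 100% over the 3 forms. This sorting was chosen after the estimates were seen and has no test. It was not made for other genes, so how often their groups do not overlap is not known. Before serum in siControl, CLK1 skipped exon 4 in 47.9% and 46.3% of transcripts, included it in 40.8% and 38.8% and kept an intron in 11.3% and 14.9%. After serum the skipped form was at 16.9% and 33.6%, the included form at 42.7% and 41.3% and the intron-keeping form at 40.5% and 25.1%. The skipped form was lower and the intron-keeping form higher in both libraries after serum (also as shares of estimated counts). The included form was higher in both per length only. As a share of estimated counts it was 37.9% and 34.3% before serum and 29.4% and 34.04% after it.

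In siPFDN2 the CLK1 skipped form was at 36.3% and 28.7% before serum and 19.2% and 22.7% after it, and the included form at 50.03% and 48.9% and then 53.6% and 56.7%. The intron-keeping form, at 13.7% and 22.4% and then 27.2% and 20.6%, overlapped. In siPFDN5 the skipped form was at 27.03% and 29.7% before serum and 23.03% and 26.6% in the libraries labelled after it, the included form at 49.5% and 48.6% and then 61.8% and 58.7%, and the intron-keeping form at 23.5% and 21.7% and then 15.2% and 14.7%. Exon 4 of CLK1 was included more with siPFDN2 and in the libraries labelled siPFDN5 than in siControl at the same time, without overlap, and skipped less with both siRNAs before serum.

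CLK4 differed from CLK1 in which form was low after serum in siControl. There its included form went from 70.2% and 60.1% before serum to 40.02% and 49.5% after it, and its intron-keeping form from 11.8% and 23.4% to 39.8% and 31.3%, while skipping was at 18.03% and 16.5% and then 20.2% and 19.1%. In siPFDN2 the forms overlapped, with intron-keeping at 19.004% and 35.3% and then 26.4% and 25.8%. In siPFDN5 the included form was at 58.7% and 54.4% before and 70.4% and 66.2% in the libraries labelled after serum, and the intron-keeping form at 23.6% and 27.1% and then 15.02% and 18.6%. CLK4 has the fewest counts of the 4 genes, between 457 and 896 per library.

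Per length, CLK2 and CLK3 included exon 4 in most transcripts. CLK2 included it in 69.1% to 84.2% of transcripts over the 12 libraries, skipped it in 4.15% to 13.3% and kept intron 4 in 9.605% to 17.9%. CLK3 included it in 58.4% to 71.9%, skipped it in 19.8% to 32.1% and kept intron 3 or 4 in 3.97% to 12.6%. Of all estimated counts of CLK3, transcripts outside the 3 forms included, those with exon 4 held 47.5% to 66.9% and those that skip it 5.29% to 9.33%. The skipping transcripts with most counts, CLK3-223 and CLK3-225, are 481 and 833 bases long, which raises their share per length. CLK3-204, which skips exon 4 and is 1749 bases long, was at 0 in all 12 libraries. The share per length is thus no measure of how many full-length CLK3 messages skip exon 4. In both genes the 2 siPFDN5 libraries lay below the 2 siControl libraries in intron-keeping, before and after serum. How many other genes did so was not counted. Over all genes the median log2 change of the retained-intron ratio in siPFDN5 against siControl was 0.041 before serum and -0.59 after it. In CLK2 the estimated counts summed to between 0.504 and 0.515 of the exon counts, against 1.03, 0.908 and 1.07 at the median in CLK1, CLK3 and CLK4. The reason was not tested, and CLK2 shares rest on the fragments assigned.

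**Figure D5:**
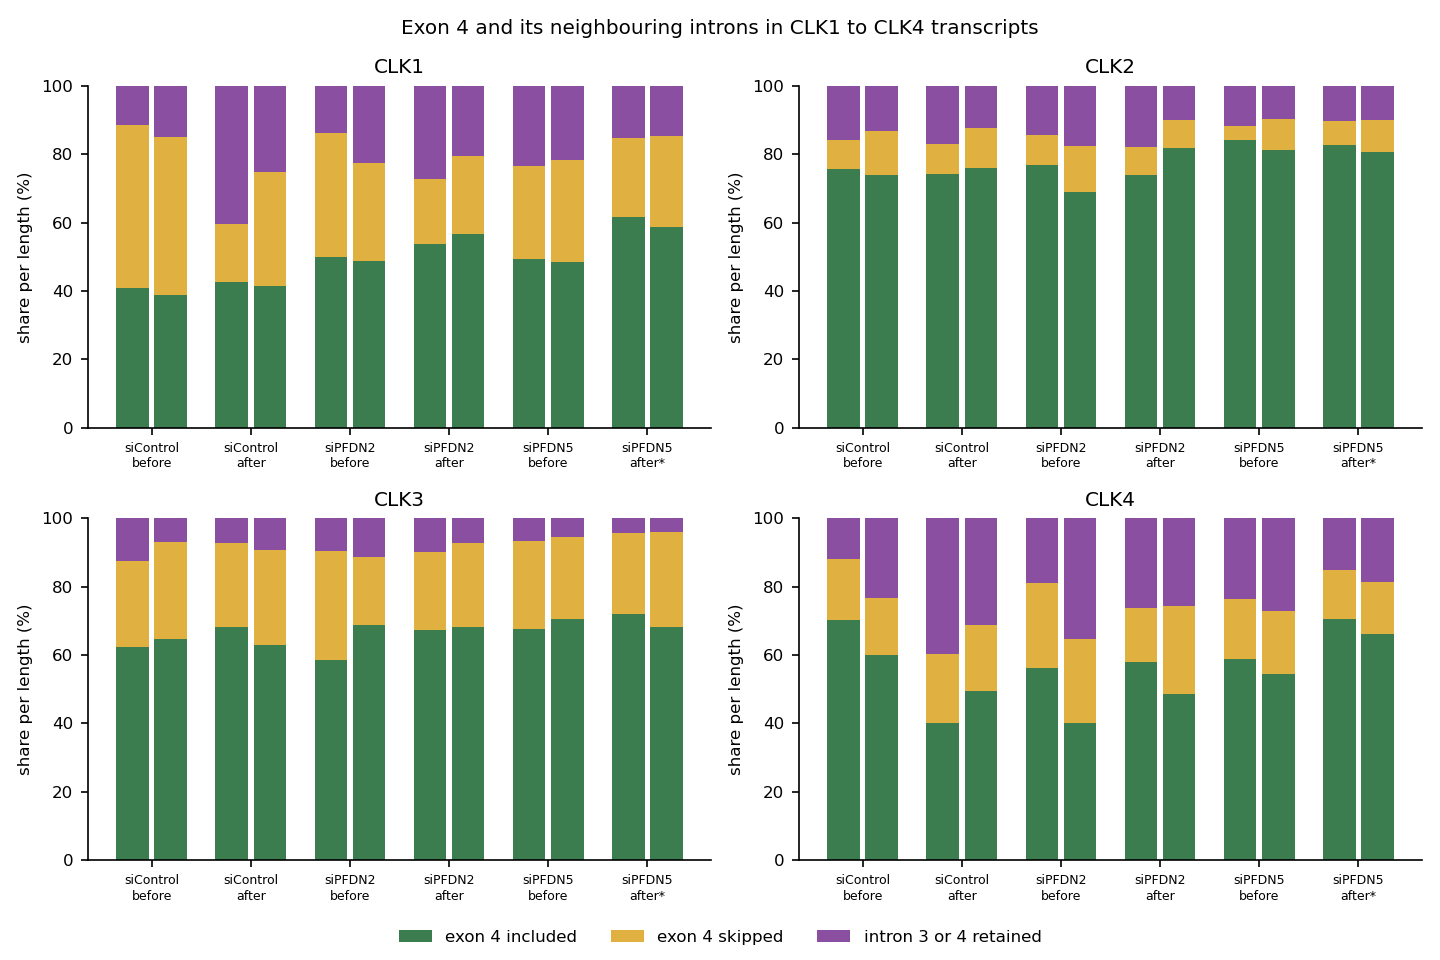
Share per transcript length of CLK transcripts that include exon 4, skip it, or keep intron 3 or 4, in each of the 12 libraries (paired bars, replicates 1 and 2; *, libraries labelled siPFDN5 after serum). In CLK1 the skipped share is largest in siControl before serum (47.9% and 46.3%), and the highest intron-keeping bar is replicate 1 of siControl after serum in both CLK1 (40.5%) and CLK4 (39.8%).

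Most of these counts sit in 17 transcripts that hold at least 5% of their gene's estimated counts on average. In CLK1 they are the coding CLK1-201 (mean 35.0%), the NMD transcript CLK1-204 that skips exon 4 (22.1%), CLK1-210 (15.3%) and CLK1-207 (13.3%). CLK1-204 was at 38.3% and 36.2% in siControl before serum and 9.73% and 24.2% after it. CLK1-210 went the other way, from 8.56% and 8.22% to 25.8% and 22.2%, and neither overlapped. How often transcripts of other genes lay without overlap was not counted. In siPFDN5, CLK1-210 was at 18.1% and 20.4% before serum and 13.4% and 11.7% in the libraries labelled after it. CLK4 is led by the coding CLK4-201 (42.5%), followed by CLK4-202 and CLK4-203, which keep introns (both 13.1%), CLK4-210, which skips exon 4 (9.76%), CLK4-209 (5.89%) and CLK4-208 (5.198%). CLK4-201 was at 53.9% and 48.5% in siControl before serum and 30.9% and 35.7% after it, again without overlap. CLK2 is led by CLK2-202 (52.7%), with the intron-keeping CLK2-207 at 17.1%, CLK2-203 at 15.5% and CLK2-205, which skips exon 4, at 8.29%. CLK3 is led by CLK3-201 (46.5%), with CLK3-212 at 11.04% and CLK3-203, which keeps intron 3, at 8.52%. Annotated NMD transcripts of CLK1 as a class held 38.3% and 36.2% in siControl before serum and 12.8% and 24.2% after it, 30.4% and 30.3% and then 12.9% and 16.6% in siPFDN2, and 19.8% and 21.9% and then 17.3% and 20.7% in siPFDN5.

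Substrates and relatives of the CLK kinases were read in the same fit. Of 14 SR proteins and TRA2 factors, the substrates of CLK kinases, 6 rose in the averaged serum response (SRSF2, SRSF3, SRSF5, SRSF6, SRSF7 and SRSF8) and 0 fell, with a median log2 change of 0.30 against -0.025 over all genes and 7.6% of genes called higher. The largest rises were those of SRSF5 (0.69 ± 0.088, edgeR adjusted p = 0.000426) and SRSF3 (0.63 ± 0.094, 0.00134). Within a single siRNA 0 passed in siControl, 0 in siPFDN2 and 6 in siPFDN5, whose libraries labelled after serum had no lower PFDN5. Over all genes 2.47%, 2.06% and 5.72% were called higher in these comparisons, in the same order. Without replicate 2 of siPFDN2 before serum the median log2 change of the 14 was 0.24, against -0.0071 over all genes. Of 4 other kinases of SR proteins, SRPK3 fell (-0.86 ± 0.24, edgeR adjusted p = 0.0348) and SRPK1, SRPK2 and PRPF4B did not pass. None of the 9 related DYRK and HIPK kinases passed, with changes from -0.63 (HIPK4) to 0.30 (DYRK1A). The same held for 4 genes with reported intron retention, OGT, MAT2A, NXF1 and SNRNP70, at -0.28 to 0.17. With the GC trend removed, when 7925 genes were called against 4163, 1 DYRK or HIPK kinase was called higher and 0 lower. Of the genes with reported retention 1 was then called lower, and of the 4 other SR kinases 2 were, with 0 higher in both lists. The intron share fell in 5 of 12 tested SR factors (SRSF1, SRSF3, SRSF5, SRSF10 and TRA2B), in 3 of 4 other SR kinases (SRPK1, SRPK2 and PRPF4B), in 2 of 8 DYRK and HIPK kinases (DYRK2 and DYRK4) and in MAT2A of the 4 genes with reported retention, whereas that of CLK2 rose. Of all genes 22.2% were called lower. The median change was -0.49 in the SR factors and -0.63 in those kinases, against -0.28 over all genes.

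Across the 12 libraries the levels of the CLK genes were not uniformly related. Pearson's r of log2 CPM between pairs ran from -0.76 (CLK1 and CLK3) to 0.72 (CLK1 and CLK4), and without replicate 2 of siPFDN2 before serum these became -0.12 and 0.34. Without it the closest pair was CLK2 and CLK4 (r = 0.83, from 0.017 with it). Among 10471 to 10473 protein-coding genes with a mean log2 CPM of at least 3, those most like CLK1 were DMTF1, ORC3 and MTIF3 (r = 0.91, 0.89 and 0.89). For CLK2 they were HOXB3, FAM193B and COL27A1 (0.96, 0.95 and 0.95), for CLK3 RXRB, PLOD3 and ABCF3 (0.99, 0.98 and 0.97) and for CLK4 CCDC14 and NR2C1 (0.94 each). Without the deviating library the 3 values of CLK1 were 0.79, 0.70 and 0.64, and those named for the other 3 kinases lay between 0.844 and 0.935. The libraries share serum state and GC trend, so these values only describe likeness.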

How the data were processed

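RNA-seq of total RNA, treated with DNase and depleted of 18S rRNA, covered 12 libraries in 6 groups of 2. Gene-body and exon counts were deposited by the authors as whole-number counts of fragments, made with featureCounts on Ensembl release 87 of GRCh38 without a strand option, both ends mapped, and fragments over more than one gene assigned to each of them, per the file headers. HISAT2 0.12.2, featureCounts 1.5.2 and kallisto 0.43 are named in the submitters' processing notes. The authors deposited estimated counts per transcript (not TPM, as their sums show), which were rounded here. The count tables also hold 6 columns that match no sample and were not used.

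From these, intron counts were gene-body minus exon counts, and GENCODE release 29 gave biotypes and structures. Levels (27915 genes), intron-to-exon ratios (17303) and retained-intron ratios (6660) were tested with edgeR 4.0.16 (TMM, filterByExpr, robust quasi-likelihood, the ratios as an interaction with library as a block), with Benjamini-Hochberg adjustment at 0.05 over all genes. Standard errors were derived from the log2 change and its F statistic. DESeq2 1.42.0 was an alternative to the level test, and GC trends were removed with lowess (span 0.3) in another. The level and intron-ratio tests of the averaged serum response were tried on simulated counts with 200 genes changed by log2 1 in either direction. They recovered 100% and 99% of these, with 7.41% and 3.41% of calls false. The simulation used 1 dispersion (0.02) for all genes and had no deviating library. The retained-intron ratio was not simulated. The CLK genes and the gene lists were chosen with earlier results of these data known. Named transcripts held at least 5% of their gene's counts on average, named list genes were up to 2 largest changes that passed in each direction, and genes like a CLK gene in pattern were the 3 highest Pearson correlations, of which 1 is not reported here; other list members were named to account for the lists.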

Additional observations from a re-analysis of the deposited data

Results flagged for a closer look

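In 6 shares of transcripts that had no test of their own, both libraries after serum lay above both before it with one siRNA and below them with another. The differences between the siRNAs in these 6 were not tested, and the libraries labelled siPFDN5 after serum enter all 6. With 2 libraries per group such orders can arise by chance, and how often shares of other genes did so was not counted. The 6 are not independent. The CLK4 forms are parts of the same total, so a rise in any of them lowers the rest together. CLK4-201, with 42.5% of CLK4 estimated counts on average, is protein-coding and includes exon 4, so it enters both of those shares. In CLK1 the change with serum in the form keeping intron 3 or 4 differed by -27.3 percentage points in siPFDN5 from siControl (-7.65 against 19.7). In CLK4 the same difference was -26.5 (-8.56 against 18.0), that of the form including exon 4 was 32.1 (11.7 against -20.4), and that of the form skipping it was -5.58 (-3.19 against 2.39). The protein-coding share of CLK4 differed by 28.3 percentage points (11.3 against -17.0). In CLK3 the NMD share changed by -2.39 percentage points in siPFDN2 and by 1.16 in siPFDN5, a difference of -3.55. The retained-intron shares of CLK1 and CLK4 moved the same way, higher in siControl and lower in siPFDN5. Their difference of the serum response between siPFDN5 and siControl was tested and did not pass (edgeR adjusted p = 0.237 for CLK1 and 0.252 for CLK4). The intron share over all genes of a library was also lower in siPFDN5 after serum. It was 22.8% and 25.9% before serum and 17.2% and 14.8% in the libraries labelled after it. In siControl it was 15.0% and 17.3% and then 20.6% and 16.2%, which overlapped. The part of this shift in the 6 shares was not tested.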

How the results depend on the processing

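Of the CLK results that passed, the averaged fall of CLK2 kept its call in every alternative and every fit without 1 library (edgeR and DESeq2), and its averaged rise of intron share kept it except in the 2 fits named above. Counts of genes called depended strongly on the setting, and the cause was not tested. For the gene-body level, genes called at an adjusted p under 0.05 (edgeR) numbered 4163 (averaged serum), 800 (serum in siControl), 910 (serum in siPFDN2), 3407 (serum in siPFDN5), 0 (siPFDN2 before serum), 2 (siPFDN5 before serum), 0 (siPFDN2 after serum), 1 (siPFDN5 after serum), 0 (the siPFDN2 difference) and 0 (the siPFDN5 difference). For the intron share, genes called at an adjusted p under 0.05 (edgeR) numbered 4271 (averaged serum), 0 (siPFDN2 before serum), 0 (siPFDN5 before serum), 0 (siPFDN2 after serum), 6720 (siPFDN5 after serum), 0 (the siPFDN2 difference) and 5782 (the siPFDN5 difference). For the retained-intron transcript share, genes called at an adjusted p under 0.05 (edgeR) numbered 369 (averaged serum), 0 (siPFDN2 before serum), 1 (siPFDN5 before serum), 0 (siPFDN2 after serum), 0 (siPFDN5 after serum), 0 (the siPFDN2 difference) and 2 (the siPFDN5 difference). With DESeq2 the gene-body level called 1204 (serum in siControl), 3132 (serum in siPFDN2), 27 (siPFDN2 before serum), 328 (siPFDN5 before serum), 2 (siPFDN2 after serum), 1944 (siPFDN5 after serum), 2 (the siPFDN2 difference) and 1764 (the siPFDN5 difference). With the GC trend removed the gene-body level called 7925 (averaged serum), 1769 (serum in siControl), 1876 (serum in siPFDN2), 8185 (serum in siPFDN5), 6 (siPFDN2 before serum), 182 (siPFDN5 before serum), 1 (siPFDN2 after serum), 3762 (siPFDN5 after serum) and 2427 (the siPFDN5 difference). With the GC trend removed the gene-body level changed sign, to -0.017 in CLK1 (averaged serum), -0.30 in CLK4 (serum in siPFDN2), 0.078 in CLK1 (serum in siPFDN5), -0.14 in CLK4 (siPFDN5 before serum), -0.060 in CLK4 (the siPFDN2 difference) and 0.062 in CLK4 (the siPFDN5 difference). With retained-intron and other transcripts scaled separately the retained-intron transcript share called 207 (averaged serum) and 0 (the siPFDN5 difference). With retained-intron and other transcripts scaled separately the retained-intron transcript share changed sign, to 0.047 in CLK3 (averaged serum), 0.25 in CLK3 (the siPFDN2 difference) and 0.61 in CLK3 (the siPFDN5 difference). With exon counts the gene-body level called 2729 (averaged serum), 529 (serum in siControl), 1050 (serum in siPFDN5) and 0 (siPFDN5 before serum). With exon counts the gene-body level changed sign, to -0.11 in CLK3 (serum in siPFDN5) and -0.056 in CLK3 (the siPFDN5 difference). With introns and exons scaled separately the intron share called 694 (siPFDN5 after serum) and 1 (the siPFDN5 difference). With introns and exons scaled separately the intron share changed sign, to 0.30 in CLK3 (averaged serum), -0.12 in CLK1 (siPFDN5 before serum), -0.23 in CLK2 (siPFDN5 before serum), -0.11 in CLK4 (siPFDN5 before serum), 0.13 in CLK2 (siPFDN2 after serum), 0.27 in CLK3 (siPFDN2 after serum), 0.24 in CLK4 (siPFDN2 after serum), 0.63 in CLK2 (siPFDN5 after serum), 0.29 in CLK3 (siPFDN5 after serum), 0.12 in CLK4 (siPFDN5 after serum), 0.86 in CLK2 (the siPFDN5 difference), 0.71 in CLK3 (the siPFDN5 difference) and 0.23 in CLK4 (the siPFDN5 difference). With introns and exons scaled separately the intron share passed, at 0.37 in CLK4 (averaged serum, adjusted p = 0.0473). With library size as the only scaling the gene-body level called 3416 (serum in siPFDN2), 0 (siPFDN5 before serum) and 0 (siPFDN5 after serum). With library size as the only scaling the gene-body level changed sign, to -0.057 in CLK1 (averaged serum), -0.093 in CLK4 (serum in siPFDN2), -0.15 in CLK3 (serum in siPFDN5), -0.056 in CLK4 (siPFDN5 before serum), -0.040 in CLK3 (siPFDN5 after serum) and -0.062 in CLK3 (the siPFDN5 difference). With library size as the only scaling the gene-body level passed, at -0.40 in CLK3 (averaged serum, adjusted p = 0.0487). With no filter on low counts the gene-body level called 6741 (averaged serum), 1627 (serum in siControl), 5294 (serum in siPFDN2), 5341 (serum in siPFDN5), 1083 (siPFDN2 before serum), 1032 (siPFDN5 before serum), 256 (siPFDN2 after serum), 2630 (siPFDN5 after serum), 663 (the siPFDN2 difference) and 2413 (the siPFDN5 difference). With no filter on low counts the gene-body level changed sign, to -0.023 in CLK4 (siPFDN5 before serum). Among genes that overlap no other gene the intron share called 1559 (averaged serum), 2079 (siPFDN5 after serum) and 1636 (the siPFDN5 difference). With only the libraries compared in the fit the gene-body level called 5014 (siPFDN5 before serum), 1 (siPFDN2 after serum) and 1986 (siPFDN5 after serum). With the replicate block the gene-body level called 0 (siPFDN5 before serum). With the replicate block the retained-intron transcript share called 0 (the siPFDN5 difference). With the replicate block the gene-body level changed sign, to -0.0018 in CLK3 (serum in siPFDN5). With the replicate block and the GC trend removed the gene-body level called 7249 (averaged serum), 1507 (serum in siControl), 1568 (serum in siPFDN2), 7389 (serum in siPFDN5), 2 (siPFDN2 before serum), 77 (siPFDN5 before serum), 2640 (siPFDN5 after serum) and 1 (the siPFDN5 difference). With the replicate block and the GC trend removed the gene-body level changed sign, to -0.30 in CLK4 (serum in siPFDN2), 0.077 in CLK1 (serum in siPFDN5), -0.13 in CLK4 (siPFDN5 before serum), -0.074 in CLK4 (the siPFDN2 difference) and 0.057 in CLK4 (the siPFDN5 difference). With upper-quartile scaling the gene-body level changed sign, to -0.066 in CLK3 (serum in siPFDN5) and -0.018 in CLK3 (the siPFDN5 difference). Of the 40 tests of a CLK level edgeR called 2, and 6 with no filter on low counts, 4 with the GC trend removed and 3 without replicate 2 of siPFDN2 before serum; DESeq2 called 3. No CLK gene is among the genes that overlap no other gene, so this setting gave no CLK value. The replicate numbers do not pair the libraries: 2 of 15 correlations of same-numbered deviations were over 0.1 (range -0.162 to 0.216). With the replicate block the averaged CLK2 change was -0.54 in level and 0.52 in intron share, with edgeR adjusted p = 0.0124 and 0.0139. Leaving out each library in turn, the gene-body level called 2026 to 13863 (averaged serum), 275 to 2889 (serum in siControl), 242 to 14264 (serum in siPFDN2), 251 to 10556 (serum in siPFDN5), 0 to 12252 (siPFDN2 before serum), 0 to 2022 (siPFDN5 before serum), 0 to 174 (siPFDN2 after serum), 0 to 6936 (siPFDN5 after serum), 0 to 11061 (the siPFDN2 difference) and 0 to 6329 (the siPFDN5 difference). Leaving out each library in turn, the intron share called 2110 to 8029 (averaged serum), 0 to 34 (siPFDN2 before serum), 0 to 1284 (siPFDN5 before serum), 0 to 4701 (siPFDN2 after serum), 0 to 9242 (siPFDN5 after serum), 0 to 3866 (the siPFDN2 difference) and 0 to 8650 (the siPFDN5 difference). Leaving out each library in turn, the retained-intron transcript share called 32 to 1111 (averaged serum), 0 to 329 (siPFDN2 before serum), 0 to 1 (siPFDN5 before serum), 0 (siPFDN2 after serum), 0 to 1 (siPFDN5 after serum), 0 to 183 (the siPFDN2 difference) and 0 to 4 (the siPFDN5 difference). The gene-body level of CLK1 then ranged over -0.056 to 0.30 (averaged serum), -0.79 to 0.085 (serum in siControl), -0.18 to 0.084 (serum in siPFDN5), -0.42 to 0.45 (siPFDN5 before serum) and -0.14 to 0.73 (the siPFDN5 difference). The gene-body level of CLK2 then ranged over -0.34 to 0.11 (siPFDN5 before serum) and -0.35 to 0.087 (the siPFDN5 difference). The gene-body level of CLK3 then ranged over -0.35 to -0.11 (averaged serum), -0.11 to 0.019 (serum in siControl), -0.086 to 0.13 (serum in siPFDN5) and -0.070 to 0.16 (the siPFDN5 difference). The gene-body level of CLK4 then ranged over -0.23 to 0.021 (averaged serum), -0.22 to 0.53 (serum in siPFDN2), -0.13 to 0.18 (siPFDN5 before serum), -0.29 to 0.15 (siPFDN2 after serum), -0.048 to 0.70 (the siPFDN2 difference) and -0.30 to 0.021 (the siPFDN5 difference). The intron share of CLK1 then ranged over -0.56 to -0.11 (averaged serum) and -0.10 to 0.33 (siPFDN5 before serum). The intron share of CLK2 then ranged over 0.47 to 0.58 (averaged serum), -0.15 to 0.18 (siPFDN5 before serum), -0.24 to 0.010 (siPFDN5 after serum) and -0.30 to 0.039 (the siPFDN5 difference). The intron share of CLK3 then ranged over -0.081 to 0.076 (averaged serum) and -0.064 to 0.047 (siPFDN2 after serum). The intron share of CLK4 then ranged over -0.013 to 0.14 (averaged serum) and -0.26 to 0.19 (siPFDN2 after serum). The retained-intron transcript share of CLK3 then ranged over -0.10 to 0.49 (siPFDN2 before serum), -0.18 to 0.26 (siPFDN2 after serum), -0.46 to 0.14 (the siPFDN2 difference) and -0.33 to 0.27 (the siPFDN5 difference). The retained-intron transcript share of CLK4 then ranged over -0.083 to 0.31 (averaged serum). Groups of 1 left by such a fit borrow their spread from the other groups. Depth limits CLK4 most, with 457 to 896 gene-body counts per library.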
